A study of Mus musculus with 89 samples.

Results

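Bacteroidota and Actinobacteriota were followed in mouse feces from before brain surgery to 4 wk after it, as percents of 16s rRNA gene reads. The members were the 22 sequence variants that the deposited taxonomy table places in Bacteroidota and the 18 that it places in Actinobacteriota, matched by sequence to the count table. They were 40 of the 434 variants with an assigned taxonomy, and 40 of the 4059 variants that had a read in the columns used. Feces came from male C57Bl/6j mice, which the labels divide into 6 sham mice, given a craniotomy only, and 7 mice given a controlled cortical impact (CCI), a contusion made by an impactor on the exposed cortex, with 40 sham and 49 CCI samples. Surgery took place at 8 to 10 wk of age. All mice of both groups had first received bowel irrigation with polyethylene glycol and repeated gavage of 1 pool of cecal contents, and bedding was mixed across cages. After surgery, mice were housed with others of their own injury group. The columns of the count table are named by collection time and animal number and give no injury group, so sham and CCI mice were pooled in every value here, and effects of injury, craniotomy, age and housing over time cannot be told apart.

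There were 89 columns from 13 animals, 13 at each collection time except 12 at 3 d and 12 at 2 wk, where animal 160 had no column of at least 10000 reads. A column held 10266 to 201686 reads with a median of 78985, and the median by collection time ran from 68333 at 4 wk to 89486 at 1 wk. Only 3 columns held fewer than 20000 reads, namely animal 153 at 1 d (10266), animal 159 at 3 d (14669) and animal 160 at 1 wk (13687). Variants with an assigned taxonomy held 98.7% of a column's reads on average. The limit that a count of 0 allows, taken as 3 reads, was 0.0292% in the shallowest column and 0.00149% in the deepest. It covers counting error only. A percent of reads is relative, so fewer cells of 1 phylum and more cells of the others cannot be told apart.

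The Bacteroidota of the gut are anaerobic bacteria that break down plant and host glycans and release acetate and propionate. In mice most of them belong to Muribaculaceae, with Bacteroides beside them. Actinobacteriota are high-GC Gram-positive bacteria. In the gut they are mainly Bifidobacterium, which ferments oligosaccharides to acetate and lactate, and the Coriobacteriales, which include families known for the conversion of bile acids and plant polyphenols. Firmicutes, the other large phylum of the mouse gut, hold many butyrate producers, and the ratio of Bacteroidota to Firmicutes is widely used as a summary of community composition.

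The phyla differed in how their reads were divided among variants. Bacteroidota held 41.9% of all reads in 22 variants, Actinobacteriota 3.50% in 18 and Firmicutes 52.0% in 387. Bacteroidota comprised Muribaculaceae (21 variants) and Bacteroidaceae (1 variant, of the genus Bacteroides), whose mean percents were 90.6% and 9.39% of the phylum's. Actinobacteriota comprised Bifidobacteriaceae (1 variant, Bifidobacterium), Eggerthellaceae (16 variants) and Atopobiaceae (1 variant, Coriobacteriaceae_UCG-002), at 77.8%, 19.4% and 2.78% of the phylum's mean percent. Those shares are ratios of mean percents, in which columns rich in a family count for more. As a mean of the share within each column, Bifidobacterium was 49.4% ± 40.2 (SD, n = 89) of Actinobacteriota reads, with single columns between 0% and 100%. Of the Eggerthellaceae variants, 8 were Enterorhabdus and 2 Parvibacter, both genera described from the mouse gut, 4 were DNF00809 and 2 had no genus. Only 2 of the Muribaculaceae variants had a genus, Muribaculum.

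Sequence length and GC content differed between Bacteroidota and Actinobacteriota variants. Firmicutes variants, at 413 to 440 bases and a GC content of 47.5% to 61.7%, overlapped both. The Bacteroidota variants were 432 to 434 bases long with a GC content of 47.2% to 57.0%, and Bacteroides had the lowest. The Actinobacteriota variants were 413 to 431 bases long with a GC content of 58.0% to 63.5%, above every Bacteroidota variant. Within Muribaculaceae, pairs of variants had a median identity of 91.5%, and within Eggerthellaceae of 94.5%. Muribaculaceae and Eggerthellaceae variants were 71.9% to 76.3% identical to each other. In what follows a variant is named by its family and its rank by mean percent of reads within it, v1 being the most abundant.

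The level of Bacteroidota differed among collection times, with the highest means at 3 d and 1 wk and the lowest at 4 wk and before injury. Before injury Bacteroidota ranged from 29.8% to 45.9% of a column's reads, with a median of 39.3% and a mean of 38.2% ± 4.06 (SD, n = 13). The mean was 39.7% ± 10.8 at 1 d (SD, n = 13), 42.3% ± 6.99 at 2 d (n = 13) and 47.0% ± 6.93 at 3 d (n = 12), where columns ran from 36.7% to 59.8%. It was 45.6% ± 6.86 at 1 wk (n = 13), 42.9% ± 8.88 at 2 wk (n = 12) and 37.0% ± 5.68 at 4 wk (n = 13), where columns ran from 29.7% to 49.5%. The ranges of all collection times overlapped, and the spread at 1 d was the widest. That spread came from animals 153 and 150, at 17.3% and 19.4%, and from animal 149 at 59.0%, while the median at 1 d was 41.5%. Collection times differed in Bacteroidota after animal means were removed (permutation test of 100000 shuffles within animals, upper tail, p = 0.00114, adjusted p = 0.00198 over 3 measures), and time accounted for 26.9% of the sum of squares left. Without the 3 columns under 20000 reads, an alternative chosen after seeing the data, this call stood.

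Within animals, Bacteroidota was higher than before injury in 10 of 12 animals at 3 d, by 8.58 ± 9.02 percentage points (mean ± SD of the differences). At 1 wk it was higher in 9 of 13, by 7.48 ± 9.36 percentage points. These were the largest of the 6 mean differences from pre-injury, and neither passed the 0.05 threshold after adjustment over 18 tests (exact permutation tests by flipping signs, two-sided, p = 0.00684 and p = 0.0171, adjusted p = 0.0615 for each). At 4 wk Bacteroidota was higher in 5 of 13 animals, with a mean difference of -1.20 ± 6.91 percentage points (the same exact permutation test, p = 0.544, adjusted p = 0.718). The differences at 1 d, 2 d and 2 wk were 1.50, 4.16 and 4.47 percentage points, with adjusted p of 0.748, 0.343 and 0.345 by the same exact test. With 1 animal left out at a time the difference at 1 d ran from 0.0656 (without animal 149) to 3.58 (without 153), with 3.40 without 150, 0.966 without 152 and 0.478 without 162. That at 4 wk ran from -2.45 (without 160) to -0.131 (without 161), with -0.699 without 154 and -0.725 without 155. The difference at 1 d had the opposite sign on the log2 scale. Without pairing by animal the differences at 3 d and 1 wk passed (adjusted p = 0.00684 and 0.0101, two-sided permutation tests). That setting ignores that the same animals were sampled at each time. Correlations with pre-injury had a median of -0.206, and under negative correlation an unpaired p is too small, so the paired result stands.

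**Figure D1:**
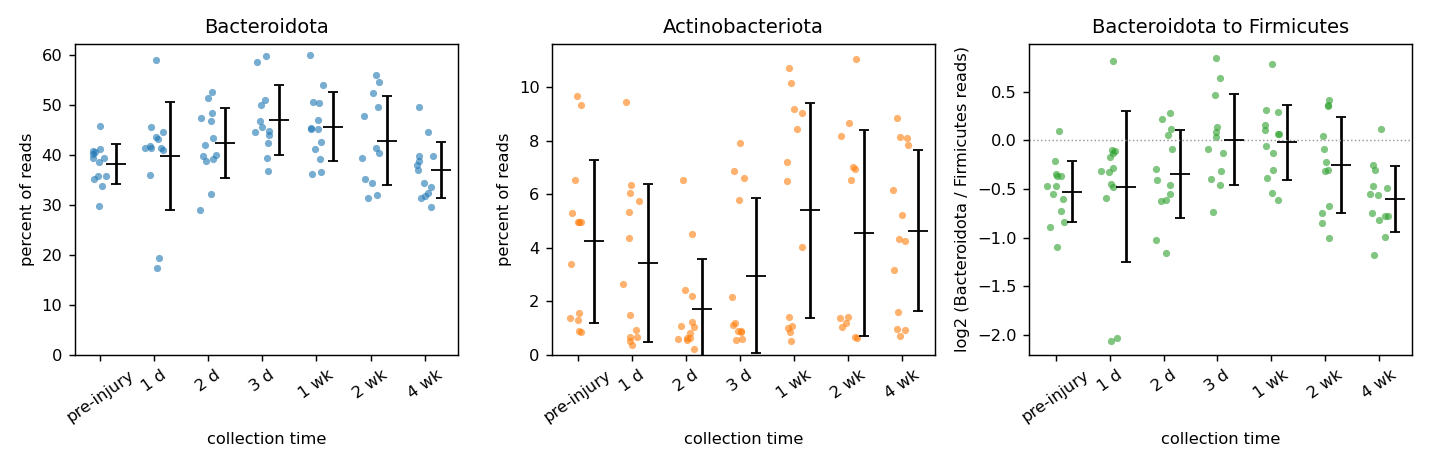
Percent of reads in Bacteroidota and in Actinobacteriota, and the log2 ratio of Bacteroidota to Firmicutes reads, at each collection time; each point is 1 column (sham and CCI pooled), and the bars give mean ± SD, cut off at 0 where the SD exceeds the mean. Mean Bacteroidota is highest at 3 d (47.0%) and mean Actinobacteriota lowest at 2 d (1.73%), with columns of all times overlapping.

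Actinobacteriota also differed among collection times, with its lowest mean at 2 d. The mean was 4.24% ± 3.04 of reads before injury (SD, n = 13), 3.43% ± 2.96 at 1 d (n = 13) and 1.73% ± 1.84 at 2 d (n = 13). It was 2.96% ± 2.90 at 3 d (n = 12), 5.40% ± 4.00 at 1 wk (n = 13), 4.56% ± 3.84 at 2 wk (n = 12) and 4.64% ± 3.02 at 4 wk (n = 13). Columns ran from 0.852% to 9.66% before injury with a median of 4.96%, and from 0.229% to 6.52% at 2 d with a median of 1.03%, so the groups overlapped although their medians lay far apart. At 1 wk the columns spanned 0.514% to 10.7%. Collection times differed (permutation test of 100000 shuffles within animals, upper tail, p = 0.00198, adjusted p = 0.00198), at 24.6% of the sum of squares left after animal means. At 2 d, 10 of 13 animals were lower than before injury, with a mean difference of -2.51 ± 3.29 percentage points that missed the threshold (the same exact permutation test, p = 0.0164, adjusted p = 0.0615). At 1 wk 7 of 13 animals were higher and 6 lower, with a mean difference of 1.15 ± 4.25 percentage points (adjusted p = 0.526 by the same exact test). The other differences were -0.814 at 1 d, -1.35 at 3 d, 0.247 at 2 wk and 0.399 at 4 wk in percentage points, with adjusted p from 0.366 to 0.825 (the same exact test). With 1 animal left out at a time, the difference at 1 d ran from -0.996 to -0.509 (without animal 150; -0.522 without 161) and that at 3 d from -1.75 to -0.710 (without 153). That at 1 wk ran from 0.467 (without 159; 0.769 without 160) to 1.75 (without 151). The differences at 2 wk (-0.284 to 0.804) and 4 wk (-0.115 to 0.877) turned sign, at 2 wk without animal 162 or 158 and at 4 wk without animal 152, and that at 2 wk also turned on the log2 scale.

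Against Firmicutes, Bacteroidota had fewer reads before injury and at 4 wk and about equal reads at 3 d and 1 wk. The mean log2 ratio of Bacteroidota to Firmicutes reads was -0.53 ± 0.31 before injury (SD, n = 13), -0.48 ± 0.77 at 1 d (n = 13) and -0.35 ± 0.45 at 2 d (n = 13). It was 0.01 ± 0.47 at 3 d (n = 12), -0.02 ± 0.38 at 1 wk (n = 13), -0.25 ± 0.49 at 2 wk (n = 12) and -0.60 ± 0.34 at 4 wk (n = 13). Bacteroidota reads outnumbered Firmicutes reads in 1 of 13 columns before injury, 1 of 13 at 1 d, 4 of 13 at 2 d, 6 of 12 at 3 d, 7 of 13 at 1 wk, 4 of 12 at 2 wk and 1 of 13 at 4 wk. Firmicutes itself had a mean of 55.1% of reads before injury, 47.1% at 3 d, 46.2% at 1 wk and 55.7% at 4 wk. On the linear scale the median ratio was 0.721 before injury, with columns from 0.467 to 1.07, and 0.981 at 3 d, with columns from 0.601 to 1.79, so the ranges overlapped. The log2 ratio differed among collection times (permutation test of 100000 shuffles within animals, upper tail, p = 0.0018, adjusted p = 0.00198), at 25.4% of the sum of squares left after animal means. With 41.9% of all reads in Bacteroidota and 52.0% in Firmicutes, the ratio largely repeats the percent of Bacteroidota and is not a separate result. It was higher than before injury in 8 of 12 animals at 3 d, by 0.52 ± 0.61, and in 10 of 13 at 1 wk, by 0.51 ± 0.60 on the log2 scale (mean ± SD of the differences). Neither difference passed the threshold (the same exact permutation tests, p = 0.0156 and p = 0.0132, adjusted p = 0.0615 for each). Without pairing by animal both passed (adjusted p = 0.011 and 0.0101, two-sided permutation tests), in a setting that ignores the repeated sampling of animals. At 1 d, 2 d and 2 wk the differences were 0.05, 0.18 and 0.26, and that at 4 wk was -0.07, with adjusted p from 0.366 to 0.849 by the exact test. With 1 animal left out at a time the value at 1 d ran from -0.054 to 0.21 and was below 0 without animal 149 or 162. That at 2 d ran from 0.09 (without 162; 0.10 without 152) to 0.26. That at 4 wk ran from -0.15 (without 160) to -0.0029 (without 161), with -0.05 without 154 and -0.04 without 155.

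Muribaculaceae, glycan degraders that dominate the Bacteroidota of mice, made up 7.19 of the 8.58 percentage points of difference in their phylum at 3 d. Bacteroidaceae, at 9.39% of the phylum's mean percent, made up 1.39 points. Muribaculaceae were 90.6% of that mean percent, so their larger part in points comes with their size. They held 34.8% ± 3.35 of reads before injury (SD, n = 13), with columns from 28.4% to 39.4%, and 42.1% ± 5.17 at 3 d (n = 12), with columns from 35.1% to 51.6%. Of 12 animals, 10 were higher at 3 d than before injury. The means were 35.1% at 1 d, 38.4% at 2 d, 41.2% at 1 wk, 39.2% at 2 wk and 34.3% at 4 wk. The lowest columns were again animals 153 and 150 at 1 d, at 15.5% and 17.4%, whereas the other 11 columns of that time lay at 33.1% or above. In edgeR, which scales columns by TMM rather than by their totals, the log2 fold change of the family from pre-injury was 0.38 ± 0.18 (SE) at 3 d (quasi-likelihood F test, unadjusted p = 0.0422, adjusted p = 0.19).

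Bacteroidaceae, here a single Bacteroides variant and thus a degrader of many polysaccharides, held 3.36% ± 1.63 of reads before injury (SD, n = 13), 4.86% ± 2.76 at 3 d (n = 12) and 2.71% ± 1.34 at 4 wk (n = 13). Columns ran from 1.37% to 6.45% before injury, from 1.62% to 9.89% at 3 d and from 0.702% to 5.21% at 4 wk. It was present in all 89 columns. At 3 d, 10 of 12 animals were higher than before injury, and at 4 wk 9 of 13 were lower. The highest single value was 11.2%, in animal 149 at 1 d. Its log2 fold change at 3 d was 0.60 ± 0.25 (SE) in edgeR's fit of families (unadjusted p = 0.0199, adjusted p = 0.134) and 0.37 ± 0.25 (SE) for the same reads in the fit of variants, whose TMM factors differ (adjusted p = 0.592). In the fit of families, the test of all times together gave an adjusted p of 0.136. DESeq2 put both families of the phylum past the threshold at 3 d, Bacteroidaceae with an adjusted p of 0.0231 and Muribaculaceae at 0.0307, where it called 18.5% of all families. Over all times it called Bacteroidaceae (adjusted p = 0.0176) and 33.3% of all families, so that these calls depended on the setting. Muribaculaceae passed over all times in edgeR only with column totals as library sizes (adjusted p = 0.0321). DESeq2 differs from the edgeR fit in both the test and the size factors. Within edgeR the adjusted p of Bacteroidaceae over all times also passed with column totals as library sizes (0.0214, where 29.6% of all families were called), with DESeq2 size factors (0.0349, 25.9%), with a filter at 50% of columns (0.0474, 17.4%) and without animal 150 (0.0320, 18.5%) or 153 (0.0281, 18.5%). Atopobiaceae passed over all times without the block (0.0293), where 7.41% of all families were called.

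**Figure D2:**
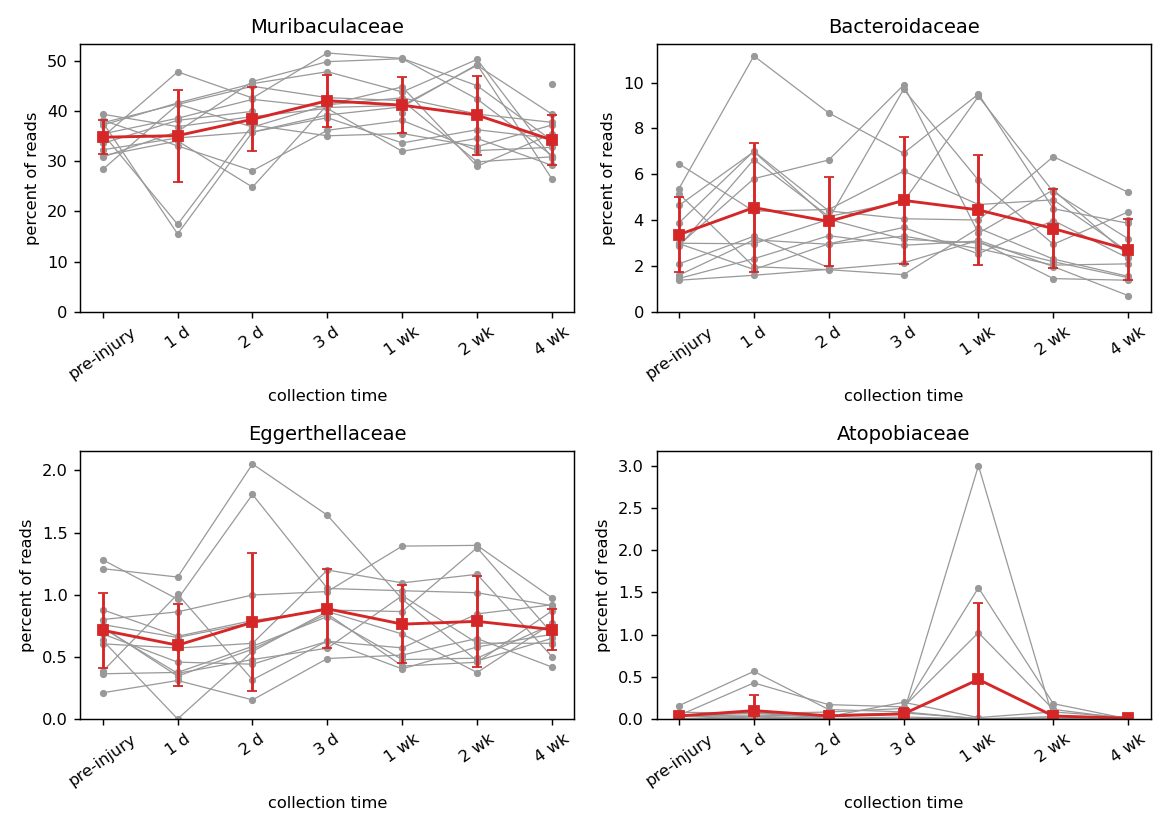
Percent of reads in Muribaculaceae, Bacteroidaceae, Eggerthellaceae and Atopobiaceae at each collection time, with 1 gray line per animal (broken where animal 160 has no column) and red squares with bars for mean ± SD, cut off at 0. Muribaculaceae reached a mean of 42.1% at 3 d, and Atopobiaceae exceeded 1% only in animals 155, 158 and 159 at 1 wk.

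Bifidobacteriaceae, the single Bifidobacterium variant, held most of the Actinobacteriota reads. Its mean was 3.49% of reads before injury, 2.74% at 1 d, 0.913% at 2 d, 2.01% at 3 d, 4.16% at 1 wk, 3.74% at 2 wk and 3.91% at 4 wk. The median was 3.61% before injury, 0.0883% at 2 d, 0.0513% at 3 d and 5.55% at 1 wk. The rest of the phylum had means between 0.692% (1 d) and 1.23% (1 wk) and 0.814% at 2 d. At 2 d, 10 of 13 animals held less Bifidobacterium than before injury and 3 held more.

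Columns of Bifidobacterium were either rich or nearly empty. Over all times 47 of 89 columns held at least 1%, 35 held less than 0.1% and only 7 lay between. The number of columns at or above 1% was 8 of 13 before injury, 7 of 13 at 1 d, 3 of 13 at 2 d, 5 of 12 at 3 d, 8 of 13 at 1 wk, 6 of 12 at 2 wk and 10 of 13 at 4 wk. In 3 animals, 158, 161 and 162, the level was at or above 1% at every collection, from a lowest value of 1.80% (animal 161 at 2 d) to a highest of 10.6% (animal 162 at 2 wk). In animals 154 and 156 it never exceeded 0.0102% and 0.0219%. The other 8 animals lay on both sides of 1%.

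All 8 of those animals were below 1% at 2 d, so the 3 columns at or above 1% at that time came from animals 158, 161 and 162. At the other times the 8 animals differed in whether they were above 1%. Animal 150 went from 4.23% before injury to 0.0237% at 3 d and 8.02% at 1 wk. Animal 153 held 9.44% at 1 d, 0.0883% at 2 d, 0.0433% at 3 d and 8.35% at 1 wk. In both, the level was low at 2 d and 3 d and high again at 1 wk. Animal 151 held 6.30% before injury, had no Bifidobacterium read at 1 wk and 2 wk, and held 2.74% at 4 wk. Animals 149 and 152, at 0.776% and 0.834% before injury, stayed below 0.1% from 1 d to 2 wk and then held 4.72% and 7.51% at 4 wk. Animal 159 ran the other way, with 0.0188% before injury, 6.67% at 1 wk and no read at 4 wk. Animals 155 and 160 were below 1% at 2 d only, at 0.753% and 0.304%. In edgeR the log2 fold change of this variant at 2 d was -2.54 ± 1.10 (SE), with an unadjusted p of 0.0236 and an adjusted p of 0.462. Over all times its adjusted p was 0.308, and with no filter on rare variants 5.1e-09, a change of call for which the cause was not tested.

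**Figure D3:**
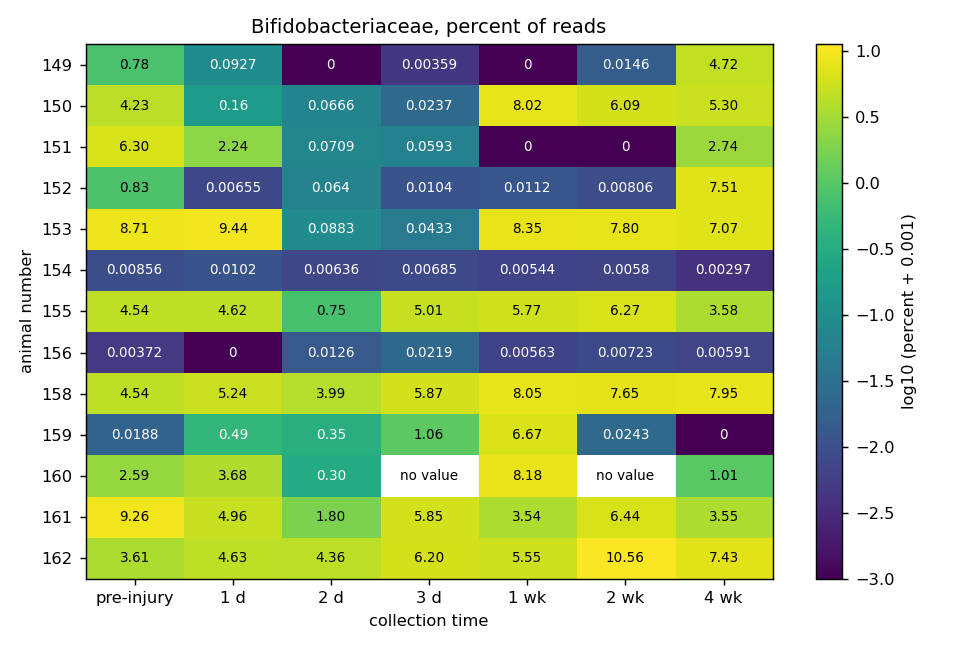
Percent of reads in the Bifidobacterium variant for each animal (lines) and collection time (columns), colored on a log10 scale with the percent written in each cell. Animals 158, 161 and 162 hold at least 1% throughout and animals 154 and 156 at most 0.0219%, while at 2 d only 3 of 13 cells reach 1%.

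Eggerthellaceae, a family of Coriobacteriales known for bile acid and polyphenol conversion, had means between 0.593% and 0.886% at all collections. It held 0.713% ± 0.304 of reads before injury (SD, n = 13), 0.593% ± 0.329 at 1 d (n = 13) and 0.886% ± 0.318 at 3 d (n = 12). At the other times it was between 0.719% and 0.785%. The highest columns were animals 162 and 159 at 2 d, at 2.05% and 1.81%. Of the 89 columns, 88 held reads of the family, and the exception was the shallowest one, animal 153 at 1 d, where all Actinobacteriota reads were Bifidobacterium. The limit of a count of 0 in that column, 0.0292%, lies below every other column of the family, the lowest of which held 0.153%. The family test in edgeR gave adjusted p of 0.393 over all times and from 0.317 to 0.909 at single times.

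Atopobiaceae, an anaerobic family of Coriobacteriales, reached their highest levels in 3 animals at 1 wk. Outside that collection the highest columns were animals 162 and 155 at 1 d, at 0.564% and 0.427%. The 1 variant was found in 49 of 89 columns, with medians between 0% and 0.0455% by time. At 1 wk it held 3.00% in animal 159, 1.55% in animal 158, 1.02% in animal 155 and 0.482% in animal 160, and 0.0161% or less in the other 9 animals. All 4 of those animals were back at 0.181% or less at their next collection. The mean at 1 wk was 0.468% ± 0.907 (SD, n = 13) against 0.0350% ± 0.0450 before injury (n = 13), with a median of 0 at 1 wk. It was higher than before injury in 4 of 13 animals and lower in 5. The family's log2 fold change at 1 wk was 2.33 ± 1.23 (SE) in edgeR (adjusted p = 0.17).

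Tests of single variants were fitted on the whole table, in edgeR with animal as a block and in DESeq2. All 40 variants passed the filter of a read in at least 10% of columns. Over all collection times edgeR called 33 of 477 variants tested, or 6.92%, and 0 of 22 in Bacteroidota and 0 of 18 in Actinobacteriota. At an unadjusted p under 0.05 these were 2 and 4 variants, against 21.8% of the whole table. DESeq2 gave an adjusted p to 283 variants and called 17 of them, or 6.01%. Of the 40 members 30 had one, the other 10 being rare, and 1 was called, Eggerthellaceae v6 (adjusted p = 0.0164), for which edgeR gave 0.112. Other settings of edgeR called up to 2 members: Bifidobacteriaceae v1 with no filter, where 1.28% of 4059 variants were called, Muribaculaceae v19 with DESeq2 size factors (7.34% of 477), and Muribaculaceae v19 and Atopobiaceae v1 without the block (6.08% of 477). Eggerthellaceae v6, which has no genus, held 0.0694% of reads before injury, 0.0400% at 2 d and 0.128% at 4 wk, with columns from 0% to 0.204%, from 0% to 0.159% and from 0.0146% to 0.336%.

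At single times no variant of either phylum passed in edgeR with TMM, the filter and the block, or in DESeq2. With no filter edgeR called Bifidobacteriaceae v1 at 2 d (adjusted p = 0.000872), against 0.0739% of the whole table. Without the block it called Muribaculaceae v19 at 2 d, 3 d, 1 wk and 2 wk (adjusted p from 0.0179 to 0.0337), against 1.47%, 3.56%, 0.21% and 3.98% of the whole table. At 1 d edgeR with both called 0% of the whole table and 0 of 40 members, with 3 members under an unadjusted p of 0.05 (5.45% of the whole table). At 2 d it called 0% and 0 of 40, with 6 members under that p (10.1% of the whole table). At 3 d it called 0% and 0 of 40, with 1 member under that p (11.3% of the whole table). DESeq2 called 0 of 40 members at each of those times, against 0.629%, 2.1% and 3.56% of the whole table. At 1 wk, 0.419% of the whole table and 0 of 40 members were called, with 1 member under the unadjusted p (10.5% of the whole table). At 2 wk, 1.47% and 0 of 40 were called, with 2 members under it (13.4% of the whole table). At 4 wk, 4.4% and 0 of 40 were called, with 3 members under it (13.6% of the whole table). At those times DESeq2 called 0 members, against 4.55%, 5.45% and 8.18% of the variants to which it gave an adjusted p. At 1 wk it gave one to only 27 of the 40 members. The share of members under the unadjusted p was above that of the whole table at 1 d (7.5%) and 2 d (15%) and below it at the later times.

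The median changes of the variants are given here beside those of the whole table, without a test between them. Over all 477 variants the median log2 fold change in edgeR was -0.16 at 1 d, -0.26 at 2 d, -0.45 at 3 d, -0.36 at 1 wk, -0.11 at 2 wk and 0.18 at 4 wk. Over the 22 Bacteroidota variants it was 0.02, -0.05, 0.08, 0.33, 0.12 and 0.06 at the same times, with 13 of 22 above 0 at 3 d and 17 at 1 wk. Over the 18 Actinobacteriota variants it was -0.52, -0.59, -0.02, 0.12, -0.08 and 0.05, with 4 of 18 above 0 at 1 d and 5 at 2 d. The Actinobacteriota median was thus below that of the whole table at 1 d, 2 d and 4 wk and above it at 3 d, 1 wk and 2 wk. DESeq2 scales columns differently and put the median of all variants at -0.19 at 3 d and -0.05 at 1 wk, with Bacteroidota at 0.22 and 0.40. It put that median at -0.09 at 1 d and -0.06 at 2 d, with Actinobacteriota at -0.43 and -0.42. These medians are descriptions of lists that share the pre-injury columns.

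At the level of families edgeR called 0 of the 5 families over all collection times, against 5 of 27 (18.5%) in the whole table, and 0 of the 5 were under an unadjusted p of 0.05, against 33.3%. None of the 5 was called at a single time by edgeR with TMM, the filter and the block, and DESeq2 size factors in edgeR called Bacteroidaceae at 3 d (adjusted p = 0.0465), against 7.41% of all families. The whole table had 0% called at 1 d, 7.41% at 2 d, 0% at 3 d, 0% at 1 wk, 11.1% at 2 wk and 3.7% at 4 wk. Under an unadjusted p of 0.05 were 0 of 5 at 1 d (3.7% of the whole table), 1 of 5 at 2 d (Bifidobacteriaceae, 22.2% of the whole table) and 2 of 5 at 3 d (Bacteroidaceae and Muribaculaceae, 22.2% of the whole table). There were 0 of 5 at 1 wk, against 29.6% of the whole table, 0 of 5 at 2 wk, against 18.5%, and 0 of 5 at 4 wk, against 7.41%. DESeq2 called 1 of the 5 over all times, against 33.3% of all families, and 2 of 5 at 3 d, against 18.5%. At the other times it called 0 of 5, against 0% of all families at 1 d, 3.7% at 2 d, 22.2% at 1 wk, 11.1% at 2 wk and 3.7% at 4 wk.

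Muribaculaceae v1 and v2, the most abundant variants of the whole table, moved as a pair. They differ by 1 base in 433 and were present in all 89 columns, at means of 9.62% ± 2.10 and 8.97% ± 1.90 of reads (SD, n = 89). Reads of v2 were 86.5% to 103% of those of v1 in every column, and their percents had a Pearson correlation of 0.99 over the 89 columns, which share animals and depth. The level of v1 was 9.21% ± 1.15 before injury (SD, n = 13), 8.16% ± 2.61 at 1 d (n = 13), 10.4% ± 1.50 at 3 d (n = 12), 10.6% ± 2.20 at 1 wk (n = 13) and 8.88% ± 1.34 at 4 wk (n = 13). Without the pair, the rest of Bacteroidota had a mean of 20.4% before injury, 24.0% at 1 d, 26.7% at 3 d and 19.7% at 4 wk. At 1 d the rest was thus above its pre-injury mean and v1 and v2 below theirs, with log2 fold changes of -0.32 ± 0.20 and -0.33 ± 0.20 (SE) in edgeR (unadjusted p = 0.104 and p = 0.101). Within animals, v1 and v2 together were lower at 1 d than before injury in 9 of 13, and the rest was higher in 9 of 13. The difference of v1 and v2 had a mean of -2.04 and a median of -1.30 percentage points. Its lowest value, in a single animal, was -14.2.

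The next most abundant Bacteroidota variants were Muribaculaceae v3, Bacteroidaceae v1 and Muribaculaceae v4. Muribaculaceae v3 held 3.99% ± 1.29 of reads before injury (SD, n = 13), with columns from 2.33% to 6.60%, and 5.34% ± 2.00 at 3 d (n = 12), with columns from 1.50% to 8.87%. Muribaculaceae v4 held 2.54% ± 0.645 before injury (n = 13), with columns from 1.70% to 3.41%, and 3.64% ± 0.847 at 3 d (n = 12), with columns from 2.80% to 5.43%. The ranges of each overlapped between the times, and the adjusted p over all times was 0.594 and 0.833 in edgeR. Within animals, Muribaculaceae v4 was higher at 3 d than before injury in 12 of 12, by 1.04 ± 0.872 percentage points (mean ± SD of the differences), while v3 was higher in 8 of 12. In edgeR the log2 fold change of v4 at 3 d was 0.41 ± 0.22 (SE, adjusted p = 0.498). Muribaculaceae v10, also higher in 12 of 12, differs from v4 by 1 base and had 27.4% of its reads, with a correlation of 0.94 over columns. Both Muribaculum variants, Muribaculaceae v5 and v9, differ by 4 bases, occurred together in all 89 columns, and v9 had 39.8% of the reads of v5.

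Among the Actinobacteriota other than Bifidobacterium, the most abundant variants were far lower. Eggerthellaceae v1 and v2, both Enterorhabdus, had means of 0.114% and 0.110% of reads, Atopobiaceae v1 0.107% and Eggerthellaceae v3, of DNF00809, 0.101%. Eggerthellaceae v1 ran from 0% to 0.229% before injury with a median of 0.0755%, and from 0.0591% to 0.329% at 3 d with a median of 0.141%. Its log2 fold change at 3 d was 0.91 ± 0.51 (SE, edgeR adjusted p = 0.547). Eggerthellaceae v3 and v4 differ by 1 base and occurred together in 67 of 85 columns with either. Eggerthellaceae v8 and v10, both Enterorhabdus, also differ by 1 base but shared only 10 of the 69 columns that held either, with 23 holding v8 alone and 36 holding v10 alone. The correlation of their percents over columns was -0.23, a description over columns that share animals.

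**Figure D4:**
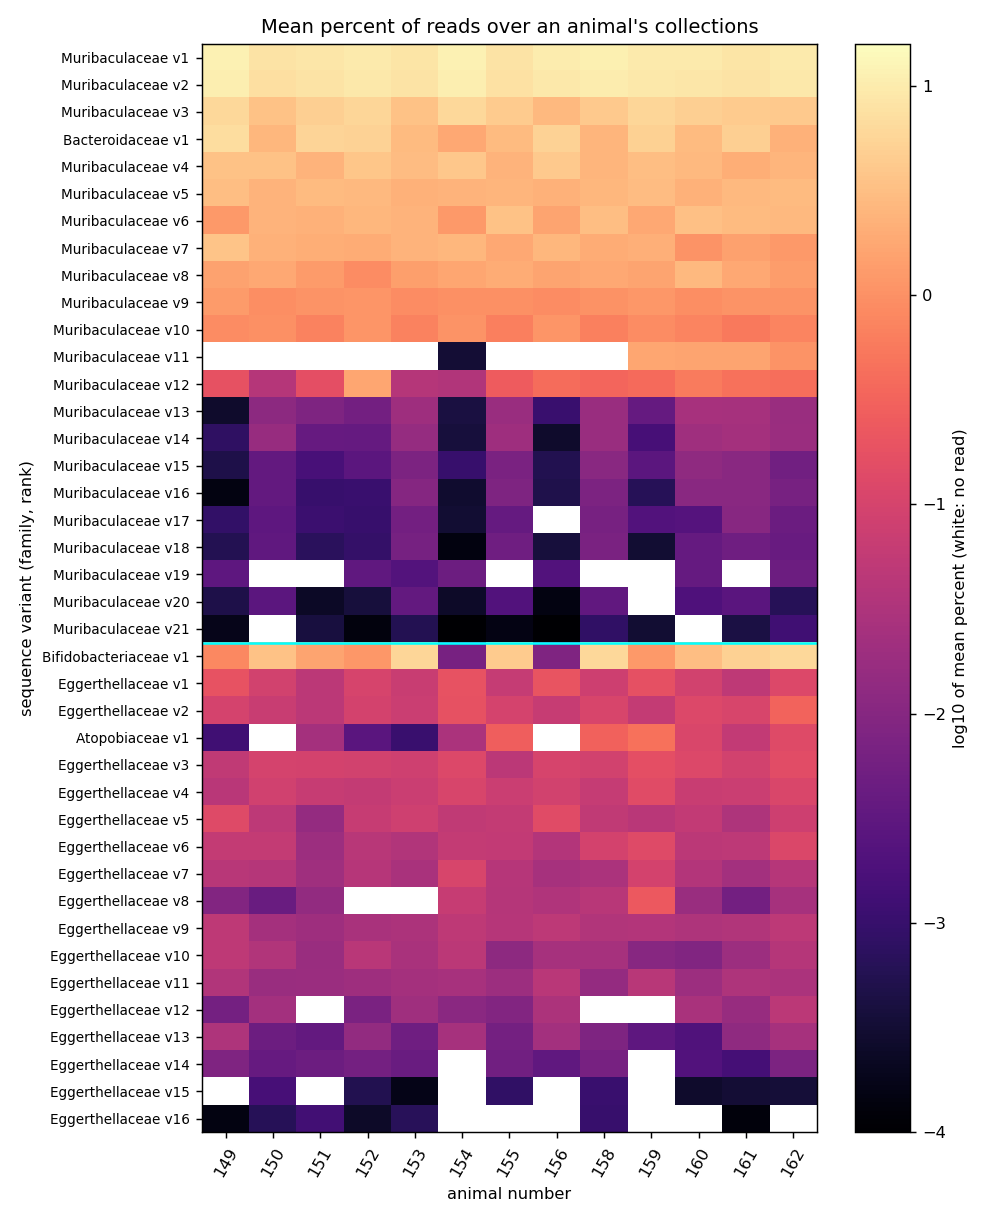
Mean percent of reads over an animal's collections, on a log10 color scale, for each of the 22 Bacteroidota variants (above the cyan line) and 18 Actinobacteriota variants (below it) and each animal; white cells have no read. Animal means run from 7.93% to 11.7% for Muribaculaceae v1 and from 1.08% to 3.69% for Muribaculaceae v7. Muribaculaceae v11 is high only in animals 159 to 162, and Bifidobacteriaceae v1 is nearly missing in animals 154 and 156.

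Animals differed in both phyla. Over an animal's collections the mean of Bacteroidota ran from 35.6% ± 7.36 in animal 150 to 51.0% ± 9.03 in animal 149 (SD, n = 7 collections each). The mean of Actinobacteriota ran from 0.886% ± 0.238 in animal 156 to 7.35% ± 1.94 in animal 162 (n = 7 collections each). After collection time was removed, animals accounted for 36.2% of the sum of squares of Bacteroidota, 55.7% of that of Actinobacteriota and 31.7% of that of the log2 ratio. All 3 passed (permutation tests of 100000 shuffles of animals within times, upper tail, adjusted p = 0.000705, 3e-05 and 0.00312). The value for Actinobacteriota comes from the smallest p that the shuffles can give. Without animal 149 the share for the log2 ratio was 23.7% and no longer passed (adjusted p = 0.0676). Injury group, cage and animal cannot be told apart in this comparison.

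Muribaculaceae v11 was confined almost wholly to 4 animals. It had reads in 26 of 89 columns, 25 of which came from animals 159, 160, 161 and 162, where it held 0.405% to 2.83%. The remaining column, of animal 154 at 2 d, held 0.00231%. In animal 159 it had no read before injury and 2.13% at 1 d, and it was present at each later collection. In animals 160 to 162 it was present from the pre-injury collection on. The other 8 animals had no read of it at any time.

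Muribaculaceae v12 was found in all 13 animals but at uneven levels. In animal 152 it held 0.429% before injury and 3.67% at 3 d, was not found at 2 wk and held 2.40% at 4 wk. In animal 156 it was not found until 4 wk, when it held 2.79%. By time its mean was 0.0897% before injury and 0.763% at 4 wk, where 12 of 13 columns held it. Its log2 fold change at 4 wk was 2.82 ± 1.37 (SE) in edgeR (unadjusted p = 0.0431, adjusted p = 0.331). Muribaculaceae v19, a rare variant with 193 reads in 14 columns, had no read in the 13 pre-injury columns and the lowest adjusted p of the members over all times (0.0655 in edgeR). It was found in 4 of 13 columns at 2 d and 4 of 13 at 1 wk, at up to 0.0213% in any column, which is below the limit of a count of 0 in the shallowest column.

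Muribaculaceae v8 was either present at a moderate level or at 0. It had reads in 75 of 89 columns, with a lowest value of 0.495%, a median of 1.93% and a highest of 3.75%. The other 14 columns, from 8 animals, had no read of it. In each of those, the lowest level seen elsewhere would have given at least 50.8 reads. The columns at 0 numbered 2 of 13 before injury, 3 of 13 at 1 d, 1 of 13 at 2 d, 2 of 12 at 3 d, 1 of 13 at 1 wk, 1 of 12 at 2 wk and 4 of 13 at 4 wk. The count table also holds 5 variants without an assigned taxonomy that differ from v8 by at most 3 bases. All of their 3123 reads lay in 7 of the 14 columns where v8 was at 0, at 0.395% to 2.92% of reads, and none lay in a column with v8.

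**Figure D5:**
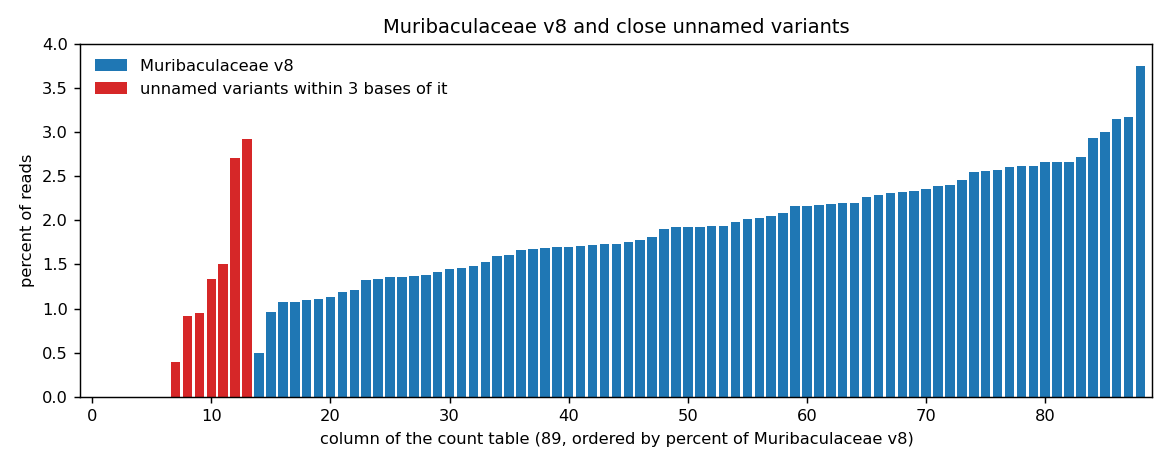
Percent of reads of Muribaculaceae v8 (blue) and of the unnamed variants within 3 bases of it (red) in each of the 89 columns, ordered by the percent of v8. The red bars, up to 2.92%, appear in 7 of the 14 columns without v8 and in none with it, and the lowest blue bar is 0.495%.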

How the data were processed

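Fecal DNA was sequenced for the 16s rRNA gene. The authors trimmed the reads, inferred sequence variants with DADA2, removed chimeras and assigned taxonomy with SILVA, whose release is named differently in the sources used here. They deposited whole-number read counts per variant and column without normalization, and a taxonomy table for 434 variants. Columns were matched to collection time and animal number by their names, and 2 of 91 columns, with fewer than 10000 reads, were not used. Groups were the 7 collection times. A table of cages, extraction batches and weights was not used, because its mice could not be matched to animal numbers. The variants, families and comparisons were chosen with earlier results of these data known. The most abundant 5 variants of each phylum and all families are named, and variants called over all times would have been. The other variants named were chosen after their values were seen.

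Percents are reads over a column's total. A pseudocount of 0.5 reads was used in the log2 ratio. Changes from pre-injury were tested within animals by two-sided exact sign-flip permutation tests, whose smallest p is 0.000244 with 13 animals and 0.000488 with 12, with Benjamini-Hochberg adjustment over 18 tests. Differences among times or animals were tested by 100000 shuffles. Variants and families were tested with edgeR 4.0.16 (quasi-likelihood F test, TMM, animal number as a block, a read in at least 10% of columns) and with DESeq2 1.42.0 in R 4.3.3, adjusted over the whole table. P-values of the sign-flip tests rest on a single difference per animal over these 13 animals. Those of the shuffles, edgeR and DESeq2 rest on the spread between columns. All tests take animals as independent, although mice of an injury group shared housing and mixed bedding after surgery. Scripts were tested on simulated data, in which edgeR called more unchanged variants than its threshold allows when many others were changed, and missed most 4-fold changes, so that a count of 0 does not show that levels stayed equal. Sequences were compared with edlib 1.3.9.post1 in Python 3.11.15, and are not printed.

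The animal numbers in the column names pair the columns, since a number stands for the same animal at each time. Deviations from the time means correlated above 0.1 in 21 of 21 pairs of times for Actinobacteriota and in 10 of 21 for Bacteroidota and for the log2 ratio. Between pre-injury and each later time, the pairs that the change tests use, they ran from 0.163 to 0.762 for Actinobacteriota, from -0.431 to 0.0486 for Bacteroidota and from -0.455 to 0.0913 for the log2 ratio. Alternatives were the log2 scale (pseudocount 0.01%), reads of named variants as the total, rarefying to 10000 reads, no block, other size factors and filters, DESeq2, and each animal left out in turn. Adding unnamed variants at 95% identity and leaving out columns under 20000 reads were chosen after seeing the data.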

Additional observations from a re-analysis of the deposited data

Results flagged for a closer look

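The deposited taxonomy names 434 variants, each found in at least 9 columns, and 3625 further variants with reads carry no name and are found in at most 14 columns each. These unnamed variants hold 1.52% of all reads. They were counted in column totals and, where they passed the filter, in tests of the whole table, but not in the reads of a phylum above. Some columns held far more of them than the limit of a count of 0. Unnamed variants at least 95% identical to a Bacteroidota variant numbered 209 and held 0.171% of all reads, with a highest share of 2.92% of a column's reads in animal 159 at 3 d. Those at least 95% identical to an Actinobacteriota variant numbered 47 and held 0.0291% of all reads, with a highest share of 2.34% in animal 160 at 4 wk. The 5 unnamed variants within 3 bases of Muribaculaceae v8 reached 2.92% of a column, in that same column of animal 159 at 3 d, where v8 itself was at 0. The most abundant unnamed variant had 36537 reads and reached 7.56% of the reads of animal 154 at 1 wk, and it was within 95% identity of no variant of either phylum. Adding the close unnamed variants to their phyla changed no call among the tests of phylum percents and ratio. Groups here hold 12 or 13 columns, and no column was tested as an outlier.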

How the results depend on the processing

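The differences among collection times passed for Bacteroidota, Actinobacteriota and their ratio to Firmicutes under every alternative run. Those among animals did too, except for the log2 ratio without animal 149. On the log2 scale the change at 1 d in Bacteroidota (-0.00236) and that at 2 wk in Actinobacteriota (-0.14) turned sign. Without pairing by animal (no block), Bacteroidota passed at 3 d (8.79 percentage points, adjusted p = 0.00684) and 1 wk (7.48, adjusted p = 0.0101), and so did the log2 ratio at 3 d (0.53, adjusted p = 0.011) and 1 wk (0.51, adjusted p = 0.0101; two-sided permutation tests). Every setting without pairing or block ignores that the same animals were sampled at each time, so its calls do not replace those of the paired tests. Leaving out 1 animal at a time gave 6.42 to 8.86 for Bacteroidota at 1 wk and 0.44 to 0.61 for the log2 ratio at 1 wk, which passed only without animal 161 (adjusted p = 0.0439 each). It gave 23.7% to 35.1% for the log2 ratio among animals. Sign turned for the log2 ratio at 1 d (-0.054 to 0.21, below 0 without animal 149, -0.054, or 162, -0.024). It also turned for Actinobacteriota at 2 wk (-0.284 to 0.804, below 0 without animal 162, -0.284, or 158, -0.0369) and 4 wk (-0.115 to 0.877, below 0 without animal 152). Named reads as the total, rarefying, added unnamed variants and columns under 20000 reads left out changed no call of these measures.

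Counts moved more. Of the whole table's variants, DESeq2 called 17 over all times and 3, 10, 17, 12, 26 and 39 at the successive times after injury. No filter gave 52 over all times and 3, 1, 1 and 3 from 2 d to 2 wk. A filter at 50% of columns gave 8 over all times, 1 at 1 wk and 7 at 4 wk, with 213 variants tested. DESeq2 size factors in edgeR gave 4 at 2 wk. Without the replicate block there were 7, 17, 1, 19 and 9 from 2 d to 4 wk, and leaving out animals gave 16 to 31 over all times (16 without 149, 18 without 152, 20 without 154, 21 without 161). Over all times DESeq2 size factors called 35 variants of the whole table and no block 29. Within the phyla, over all times, 1 variant was called with DESeq2 size factors (Muribaculaceae v19, adjusted p = 0.0491), 1 by DESeq2, 1 without a filter (Bifidobacteriaceae v1, also 1 at 2 d) and 2 without the block (Muribaculaceae v19 and Atopobiaceae v1). Without the block, Muribaculaceae v19 was also the 1 variant called at each of 2 d, 3 d, 1 wk and 2 wk. No member was called when any animal was left out.

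Of all families, 8 were called over all times with column totals, 9 by DESeq2, 2 without the block and 1 to 7 with an animal left out (fewest, 1, without 158 or 162; 2 without 152 or 160; 3 without 155). At 2 d DESeq2, the filter at 50% of columns and no block gave 1 each. At 3 d DESeq2 size factors gave 2 and DESeq2 5. At 1 wk DESeq2 gave 6 and the filter at 50% of columns 4, and at 2 wk no block gave 1. Within the phyla, 2 were called over all times with column totals and 1 each with DESeq2 size factors, DESeq2, the filter at 50% of columns, no block, and without animal 150 or 153 (0 to 1 over animals). Each was Bacteroidaceae, with Muribaculaceae added under column totals, and Atopobiaceae without the block. At 3 d, 1 was called with DESeq2 size factors and 2 by DESeq2. Animals were left out in tests of all times only for counts. Keeping columns under 10000 reads was not run, because columns would then outnumber the labelled samples. Causes of these changes were not tested. Depth limits variants below 0.0292% in the shallowest column.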

Other observations

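The number of Bacteroidota variants with a read, with each column rarefied to 10000 reads, was 14.1 ± 2.36 before injury (SD, n = 13) and between 13.5 and 15.2 on average at the later collections. That of Actinobacteriota variants was 11.5 ± 2.03 before injury (n = 13), 9.77 ± 3.37 at 1 d (n = 13) and between 10.5 and 11.6 on average afterwards. At 1 d the column of animal 153 held 1 Actinobacteriota variant.

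Some of the rarest members share long stretches with more abundant ones. Of the 40 variants, 7 can be written as the start of 1 more abundant variant joined to the end of another: Muribaculaceae v15, v16, v17, v18, v20 and v21 and Eggerthellaceae v16. They had between 21 and 392 reads each. Muribaculaceae v15, for example, shares its first 231 bases with Muribaculaceae v14 and its last 311 with Muribaculaceae v3. Muribaculaceae v19 shares its first 230 bases with v8 and its last 200 with v1, which falls short of its length of 433. Whether these are separate bacteria was not tested.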
